A study of Mus musculus with 16 samples.

Results

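The 9 genes described here are regulators of odorant receptor choice and of neuron identity in the mouse nose: the LIM-homeodomain factor Lhx2 and its adaptor Ldb1, the 4 EBF (Olf/Ebf, O/E) factors Ebf1, Ebf2, Ebf3 and Ebf4, the homeodomain factor Emx2, the histone demethylase Kdm1a (LSD1) and the lamin B receptor Lbr. They were taken by gene symbol, each has 1 probe set, and they are 9 of the 19505 genes measured. The samples came from 24 S100a5-tauGFP mice of both sexes, aged 7 to 12 weeks, in which green fluorescent protein reports on S100a5, a calcium-binding protein of olfactory sensory neurons whose transcript depends on neuronal activity. Each mouse spent 40 h alone in a chamber supplied with clean air at 3.1 L per min, and from 26 h on it received 10 s pulses every 20 min of either octanoic acid, an 8-carbon fatty acid, or filtered air as the vehicle. The olfactory mucosa of 3 mice made 1 pool, whose dissociated cells were sorted by fluorescence into GFP+ and GFP- cells, and RNA of each sort went on 1 Clariom S array. This gave 4 groups of 4 arrays: GFP+ cells after octanoic acid, GFP- cells after octanoic acid, GFP+ cells after clean air and GFP- cells after clean air. Mice of all 4 groups carried the reporter, both sorts of a pool came from the same mice, and the GFP- cells are what the gate left and are not a purified cell type.

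In olfactory sensory neurons each cell expresses 1 odorant receptor allele out of a large family. Lhx2 and Ebf factors bind motifs in receptor promoters and in the enhancers called Greek Islands, and Ldb1 bridges enhancers bound by Lhx2 into a hub that contacts the chosen receptor. Kdm1a is needed to switch a first receptor on and is then reduced by a feedback signal that runs from the receptor protein through the adenylyl cyclase Adcy3. Emx2 is needed for normal expression of many receptors, and Lbr tethers heterochromatin to the nuclear envelope, is lost as mouse olfactory neurons mature, and also shapes the lobed nucleus of neutrophils.

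The promoters of the regulators are printed first, since Ebf factors and Lhx2 are known through the letters they bind. Of the 9 genes, 8 had RefSeq promoter entries (build GRCm38.p6), 12 windows in all, each from 250 bases before to 50 after an annotated start. The 4 windows shown are those of Lbr, whose signal differed most between the sorts, and one each of Ebf3, Emx2 and Ldb1, which hold a match to an Ebf or homeodomain motif. Each runs 5′ to 3′ on the strand of the gene, and capitals mark every match, on either strand, to a short Ebf site (CCCNNGGGA), a homeodomain core (TAATTA or TAATTG) or a CCAAT box (CCAAT).
Lbr, chr1:181842352-181842651, minus strand: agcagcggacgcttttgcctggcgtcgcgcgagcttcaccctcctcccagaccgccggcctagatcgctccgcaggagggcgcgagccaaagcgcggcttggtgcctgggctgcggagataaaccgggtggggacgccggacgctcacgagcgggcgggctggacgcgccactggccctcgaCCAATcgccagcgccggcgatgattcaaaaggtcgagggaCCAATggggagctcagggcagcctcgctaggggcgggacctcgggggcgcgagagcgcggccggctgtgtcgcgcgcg
Ebf3, chr7:137314396-137314695, minus strand: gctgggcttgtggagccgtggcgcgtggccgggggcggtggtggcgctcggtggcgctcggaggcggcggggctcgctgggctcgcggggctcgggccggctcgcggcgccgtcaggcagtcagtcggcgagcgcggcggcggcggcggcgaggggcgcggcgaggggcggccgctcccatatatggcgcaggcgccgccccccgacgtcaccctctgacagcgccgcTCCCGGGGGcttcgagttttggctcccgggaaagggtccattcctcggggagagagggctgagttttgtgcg
Emx2, chr19:59458440-59458739, plus strand: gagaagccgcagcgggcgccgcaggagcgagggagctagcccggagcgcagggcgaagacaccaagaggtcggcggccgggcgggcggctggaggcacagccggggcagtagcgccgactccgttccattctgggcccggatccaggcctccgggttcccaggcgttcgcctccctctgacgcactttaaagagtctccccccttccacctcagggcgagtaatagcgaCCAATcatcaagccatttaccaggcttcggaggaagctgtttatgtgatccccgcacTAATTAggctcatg
Ldb1, chr19:46045262-46045561, minus strand: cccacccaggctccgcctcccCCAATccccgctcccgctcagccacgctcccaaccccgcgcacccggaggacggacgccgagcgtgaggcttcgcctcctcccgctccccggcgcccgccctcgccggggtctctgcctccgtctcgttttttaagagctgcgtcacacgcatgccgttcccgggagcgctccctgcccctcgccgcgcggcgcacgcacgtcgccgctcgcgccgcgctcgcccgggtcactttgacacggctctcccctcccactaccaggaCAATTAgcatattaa

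The Lbr window holds CCAAT at positions -68 and -28 from its start, and no Ebf or homeodomain match. The Ebf3 window holds the short Ebf site at -22, the Emx2 window holds TAATTA at 37 and CCAAT at -21, and the Ldb1 window holds TAATTG, read on the other strand, at 36 and CCAAT at -229. Among all 32851 promoter windows of this length the short Ebf site occurred in 6.56%, TAATTA in 5.29%, TAATTG in 8.0% and CCAAT in 37.4%. In the 948 windows of odorant receptor genes the same letters occurred in 2.53%, 18.6%, 23.2% and 40.6%. A fuller Ebf site, the short one with a T in front of it, is counted within the short one and occurred in 0.904% of all windows, in 0.527% of receptor windows and in 0 of the 12 windows of the 9 genes. Base composition differs between these sets, with a median of 68.3% G and C in the 12 windows, 35.0% in receptor windows and 52.7% in all, and 686 of the receptor windows have their start annotated at an ATG, so they may not hold the true promoter. The matches are a description of letters and not of bound sites.

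The arrays gave log2 signals between 2.13 and 19.54. The median of 5222 negative-control probe sets, 6.20, is used as the background, and the 95th percentile of these controls was 10.4. Fluorescence and transcript went together: S100a5 was 1.53 ± 0.52 log2 higher in GFP+ than in GFP- cells after octanoic acid and 1.32 ± 0.22 higher after clean air (SD over 4 pools, limma adjusted p = 0.000139 and 0.000496). The gate was set on the reporter of S100a5, so this difference checks the sort and is not a separate result. The mature neuron marker Omp averaged 18.84 and 18.67 log2 in GFP+ and GFP- cells after octanoic acid, and 18.83 and 18.69 in those after clean air, so this defining marker was bright in both sorts. Some arrays stood apart from their groups. The octanoic acid GFP+ array of pool 3 correlated least with the rest of its group, with a mean r of 0.976, and its sustentacular markers averaged 10.05 log2, while the other GFP+ arrays lay between 7.80 and 9.01. The clean air GFP- array of pool 4 had the lowest mean of the mature neuron markers, 15.85 log2, and the highest of the sustentacular markers, 10.13. Counts of calls are also given without octanoic acid pool 3 and clean air pool 4 together.

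All 9 genes lay above the background in all 4 groups. Between GFP+ and GFP- cells of the same pool, limma called 1 of the 9 genes lower in GFP+ cells after octanoic acid, Lbr, and 0 higher, at an adjusted p under 0.05. Over all 19505 genes the same fit called 6.26% higher and 10.9% lower, 17.2% in either direction (1221 and 2126 genes). After clean air it again called 1 of 9 lower, Lbr, and 0 higher, where 5.83% of all genes were called higher and 9.58% lower, 15.4% in either direction (1138 and 1868 genes). Calls in 1 of 9 genes are near these shares. Without octanoic acid pool 3 and clean air pool 4 together, the calls were again 1 lower and 0 higher of 9 in each treatment. The median difference of the 9 genes was 0.10 log2 after octanoic acid and 0.12 after clean air, and the median of all genes was 0.11 in both. These differences are in bulk RNA, where fewer cells of a type and less RNA per cell cannot be told apart.

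**Figure D1:**
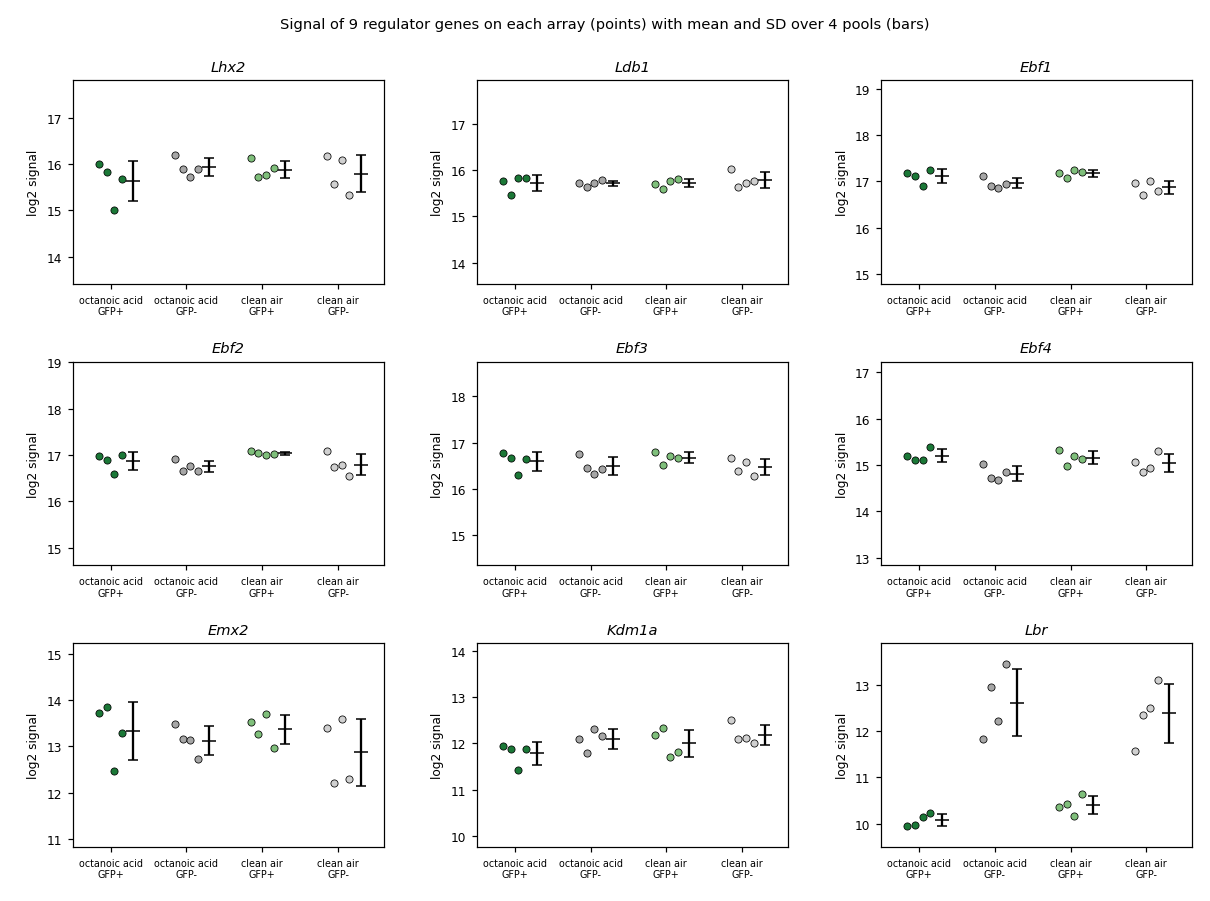
Log2 signal (vertical axis, with the same span in every panel) of the 9 genes on each of the 16 arrays, by group along the horizontal axis, with octanoic acid before clean air and GFP+ before GFP-. Points are arrays, and bars are the mean and SD over 4 pools. In the Lbr panel the GFP+ arrays lie between 9.96 and 10.64, below all GFP- arrays at 11.58 to 13.45, while in the other panels the GFP+ arrays overlap the GFP- arrays of the same treatment, except for Ebf4 after octanoic acid and Ebf1 after clean air. The share of all genes without such overlap was not counted.

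Lbr, the receptor that anchors B-type lamins and heterochromatin at the inner nuclear membrane, was the gene of the 9 that separated the sorts. In GFP+ cells after octanoic acid its log2 signals were 9.96, 9.97, 10.14 and 10.22 in pools 1 to 4, against 11.83, 12.95, 12.21 and 13.45 in the GFP- cells of the same pools. In GFP+ cells after clean air they were 10.36, 10.43, 10.17 and 10.64, against 11.58, 12.34, 12.50 and 13.11 in GFP- cells. Every GFP+ array lay below every GFP- array, though the share of all genes that separate in this way was not counted. Within pools 1 to 4, GFP+ minus GFP- was -1.87, -2.99, -2.07 and -3.22 log2 after octanoic acid, a mean of -2.54 log2 (95% interval -3.11 to -1.97), or 5.81-fold lower (3.92 to 8.61), with an adjusted p of 2.41e-05. With clean air it was -1.22, -1.91, -2.33 and -2.47 log2, a mean of -1.98 (-2.55 to -1.42), or 3.95-fold lower (2.67 to 5.86), with an adjusted p of 0.000193. The GFP+ means after octanoic acid, 10.07, and after clean air, 10.40, both lie under the 95th percentile of the negative controls, so both folds rest on a dim signal in GFP+ cells. Without octanoic acid pool 3 the difference was -2.69 (adjusted p = 0.000107), and without clean air pool 4 it was -1.82 (0.00243). The GFP- arrays also differed more among themselves (SD 0.73 log2 after octanoic acid and 0.63 after clean air) than the GFP+ arrays did (0.13 and 0.19).

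Markers of other cell types moved between the sorts with Lbr. Over all genes 10.9% were lower in GFP+ cells after octanoic acid and 9.58% after clean air. Of 13 measured neutrophil markers, 13 were lower in GFP+ cells after octanoic acid and 12 after clean air, with a median change of -7.88 and -7.77 log2 on the deposited values, or -7.76 and -6.99 with group means under the background raised to it. Their summed signal was 9.63 to 12.4 log2 in GFP+ cells and 19.1 to 20.5 in GFP- cells after octanoic acid, and 9.88 to 11.2 in GFP+ cells and 18.6 to 19.9 in GFP- cells after clean air. In GFP+ cells 9 of the 13 lay at the background after octanoic acid (Camp, Ltf, Retnlg, Mmp8, Elane, Mpo, Cebpe, Cxcr2 and Csf3r) and 8 after clean air, and in GFP- cells only Cebpe did, in both treatments. General leukocyte markers were lower in GFP+ cells for 8 of 8 genes in both treatments (median -5.58 and -5.06 log2, or -5.23 and -4.96 with values raised to the background), with summed signals of 10.2 to 11.8 log2 in GFP+ cells and 15.99 to 17.8 in GFP- cells after octanoic acid, and 10.0 to 11.4 in GFP+ cells and 15.5 to 16.9 in GFP- cells after clean air. Immature neuron markers, from cells earlier in the same lineage, were lower in GFP+ cells for 7 and 6 of 11 genes, with medians of -0.82 and -0.57 log2. Without octanoic acid pool 3 and clean air pool 4 the counts were 6 and 5, and those of neutrophil and general leukocyte markers stayed 13 and 12, and 8 and 8. The summed signal of the immature neuron markers was 17.3 to 17.5 log2 in GFP+ cells and 17.4 to 17.8 in GFP- cells after octanoic acid, and 17.2 to 17.5 in GFP+ cells and 17.5 to 17.7 in GFP- cells after clean air.

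Over the 8 GFP- arrays Lbr followed some of these lists and not others. With the mean of the neutrophil markers it had r = 0.956 and rho = 0.905 (exact permutation test over pairings, two-sided, p = 0.000298 and 0.00456, adjusted over 14 marker lists 0.00220 and 0.0128), and r was 0.892 without the 2 arrays farthest from the median of the markers. Similar values came from erythroid markers (r = 0.947, rho = 0.952, r = 0.904 without the farthest 2), Bowman gland markers (0.963, 0.952 and 0.972), progenitor and basal cell markers (0.920, 0.929 and 0.800) and general leukocyte markers (0.911, 0.905 and 0.770), all with adjusted exact permutation p-values of 0.0128 or less for both coefficients. Of the 8 progenitor and basal cell markers, 5 lay at the background in these GFP- cells in both treatments, among them Krt5, Krt14 and Trp63. Macrophage markers gave r = 0.833 and rho = 0.810 (exact p = 0.00990 and 0.0218, adjusted 0.0198 and 0.0436), with r = 0.654 without the farthest 2. Lbr was lower where mature neuron markers were higher, at r = -0.898 and rho = -0.857 (exact p = 0.00233 and 0.0107, adjusted 0.00608 and 0.025), with r = -0.922 without the farthest 2. Microvillous and tuft cell markers gave r = -0.783 (adjusted exact p = 0.0466) but rho = -0.667 (adjusted exact p = 0.145). The other 6 lists had adjusted exact p-values of 0.133 or more for r, among them immature neuron markers (r = -0.524, rho = -0.50, adjusted exact p = 0.235 and 0.275) and B cell markers (r = -0.121, rho = 0.024, adjusted exact p = 0.774 and 0.977). Within treatments, with the treatment means removed and arrays permuted within treatments (576 arrangements, added after seeing the data), r was 0.959 for neutrophil, 0.951 for erythroid, 0.970 for Bowman gland and 0.924 for progenitor and basal cell markers, each with an adjusted exact p of 0.0122. It was 0.918 for general leukocyte (0.0203), 0.878 for macrophage (0.0278), -0.920 for mature neuron (0.0194) and -0.779 for microvillous and tuft cell markers (0.0365), and the other 6 lists had adjusted exact p-values of 0.130 or more. The lists also vary with each other over these arrays, and the part of each cell type in the Lbr difference was not tested.

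**Figure D2:**
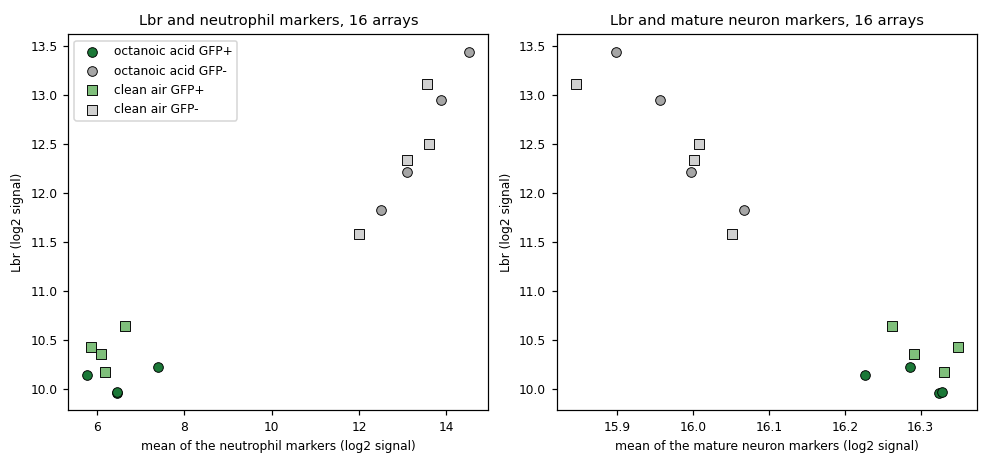
Lbr signal (vertical axis, log2) against the mean of the neutrophil and of the mature neuron markers (horizontal axes, log2 signal), 1 point per array with group by colour. Over the 8 GFP- arrays Lbr was higher where neutrophil markers were higher (r = 0.956) and lower where mature neuron markers were higher (r = -0.898). The GFP+ arrays form a compact set at low Lbr.

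Lhx2, the LIM-homeodomain factor that occupies receptor promoters and Greek Islands, had high signals in both sorts. Its log2 signals after octanoic acid were 16.01, 15.83, 15.02 and 15.67 in GFP+ cells, against 16.21, 15.90, 15.73 and 15.90 in GFP- cells. After clean air they were 16.13, 15.71, 15.77 and 15.91 in GFP+ cells, against 16.19, 15.58, 16.09 and 15.33 in GFP- cells. The groups overlapped, and the lowest arrays are the 2 that stood apart. The mean difference between GFP+ and GFP- cells was -0.30 log2 after octanoic acid (95% interval -0.69 to 0.09, adjusted p = 0.283, higher in GFP+ cells in 0 of 4 pools) and 0.08 after clean air (-0.30 to 0.47, adjusted p = 0.806, 2 of 4 pools). Without pool 3 the first was -0.16 (adjusted p = 0.627), and without pool 4 the second was -0.08. In neither treatment did the Lhx2 difference between the sorts pass the threshold on the deposited scale. Its SD over pools was 0.28 log2 after octanoic acid and 0.38 after clean air.

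Ldb1, the LIM-domain-binding adaptor that has no DNA-binding domain of its own, had the closest group means of the 9. In GFP+ cells after octanoic acid it read 15.77, 15.46, 15.82 and 15.83 log2, against 15.71, 15.64, 15.71 and 15.78 in GFP- cells. In the clean air pools it read 15.70, 15.60, 15.77 and 15.80 in GFP+ cells, against 16.02, 15.64, 15.72 and 15.76 in GFP- cells. The 4 group means lay between 15.71 and 15.78, and no neighbours in their order differed by more than their pooled SD. The difference between GFP+ and GFP- cells was 0.01 log2 after octanoic acid (95% interval -0.30 to 0.32, adjusted p = 0.974) and -0.07 after clean air (-0.38 to 0.24, adjusted p = 0.798). Other LIM cofactors and Lhx2 partners gave calls near the shares of all genes, of which 10.9% and 9.58% were lower. Of 11 measured, 1 was lower in GFP+ cells after octanoic acid (Lmo4, a LIM-only protein that competes for Ldb1, by -0.82 log2), 1 after clean air (Lmo1, by -0.72, at the background in GFP+ cells) and 0 higher, with medians of -0.10 and 0.10 log2. The single-stranded DNA-binding protein Ssbp2, which stabilises Ldb1, differed by 0.22 and 0.09 log2 and Ssbp3 by -0.18 and 0.24, all short of the threshold.

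The 4 Ebf genes encode helix-loop-helix factors of one family that bind the same site, and Ebf1 is in addition a lineage factor of B cells. Ebf1 after octanoic acid read 17.17, 17.12, 16.90 and 17.25 log2 in GFP+ cells, against 17.11, 16.91, 16.86 and 16.94 in GFP- cells. For the clean air pools it read 17.17, 17.08, 17.24 and 17.20 in GFP+ cells, against 16.96, 16.71, 17.00 and 16.79 in GFP- cells. It was higher in GFP+ cells in 4 of 4 pools of each treatment and every clean air GFP+ array lay above every clean air GFP- array, but the mean differences, 0.16 log2 (95% interval -0.14 to 0.45, adjusted p = 0.466) and 0.30 log2 (0.01 to 0.60, adjusted p = 0.174), did not pass the threshold, and both are below 0 with mature neuron centring (described further on). How many of all genes have arrays that separate in this way was not counted. Of 12 measured B cell markers, 9 were lower in GFP+ cells in each treatment and 0 higher, where 10.9% and 9.58% of all genes were lower. All 12 lay at the background in GFP+ cells of both treatments, and 7 and 8 lay there in GFP- cells after octanoic acid and clean air. Their summed signal was 10.9 to 11.6 and 10.4 to 11.3 log2 in GFP- cells, against 8.83 to 9.45 and 8.87 to 8.93 in GFP+ cells. The part of B cells in the Ebf1 signal was not tested.

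Ebf2 and Ebf3 ran close to Ebf1. Ebf2 after octanoic acid read 16.99, 16.89, 16.58 and 17.00 log2 in GFP+ cells, against 16.92, 16.65, 16.77 and 16.66 in GFP- cells. After clean air it read 17.09, 17.04, 17.01 and 17.01 in GFP+ cells, against 17.08, 16.75, 16.78 and 16.54 in GFP- cells. The clean air GFP+ arrays were the most even group of this gene (SD 0.04). All lay above the octanoic acid GFP+ arrays, at the closest with 17.005 against 16.996. The differences between GFP+ and GFP- cells were 0.11 log2 after octanoic acid (-0.21 to 0.44, adjusted p = 0.647) and 0.25 after clean air (-0.08 to 0.58, adjusted p = 0.325), with 3 of 4 and 4 of 4 pools higher in GFP+ cells. Without pool 3 the octanoic acid difference was 0.21 (adjusted p = 0.441). Ebf3 after octanoic acid read 16.77, 16.66, 16.31 and 16.64 log2 in GFP+ cells, against 16.77, 16.45, 16.32 and 16.43 in GFP- cells, and after clean air 16.81, 16.53, 16.71 and 16.67 in GFP+ cells, against 16.66, 16.39, 16.59 and 16.29 in GFP- cells. Its groups overlapped throughout, and the differences, 0.10 log2 (-0.20 to 0.40, adjusted p = 0.651) and 0.19 (-0.10 to 0.49, adjusted p = 0.402), did not pass the threshold. Ebf3 was higher in GFP+ cells in 3 of 4 pools after octanoic acid and 4 of 4 after clean air.

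Ebf4, the fourth Ebf gene, came closest to the threshold after octanoic acid. It read 15.20, 15.11, 15.12 and 15.39 log2 in GFP+ cells, against 15.03, 14.72, 14.67 and 14.85 in GFP- cells, and no GFP+ array fell among the GFP- arrays. The share of all genes whose sorts separate like this was not counted. The mean difference was 0.39 log2 (95% interval 0.07 to 0.71, higher in 4 of 4 pools), with an adjusted p of 0.0930 that misses the threshold. With clean air it read 15.32, 14.98, 15.20 and 15.12 in GFP+ cells, against 15.06, 14.85, 14.94 and 15.30 in GFP- cells, a difference of 0.12 log2 (-0.20 to 0.44, adjusted p = 0.645, 3 of 4 pools) that became 0.22 without pool 4. The 2 treatments' differences were 0.27 log2 apart (-0.18 to 0.72), which was not past the threshold either.

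Emx2, a homeodomain factor related to fly empty spiracles, varied most between pools among the 8 genes other than Lbr. After octanoic acid it read 13.71, 13.86, 12.48 and 13.29 log2 in GFP+ cells, against 13.48, 13.16, 13.14 and 12.74 in GFP- cells. In the clean air pools it read 13.52, 13.27, 13.71 and 12.97 in GFP+ cells, against 13.39, 12.21, 13.60 and 12.29 in GFP- cells. All groups overlapped, and pool 3 went against the other octanoic acid pools, with a difference of -0.66 log2 where they had 0.24, 0.70 and 0.55. The mean difference was 0.21 log2 after octanoic acid (95% interval -0.31 to 0.72, adjusted p = 0.588), or 0.50 without pool 3 (adjusted p = 0.169), and 0.49 after clean air (-0.02 to 1.01, adjusted p = 0.203, higher in 4 of 4 pools). Other zone and class transcription factors gave 2 lower of 11 after octanoic acid (Dlx5, -0.93 log2, and Nfia, -0.57) and 1 lower after clean air (Dlx5, -0.57), where 10.9% and 9.58% of all genes were lower. The list had medians of -0.29 and 0.15 log2. Without octanoic acid pool 3 and clean air pool 4 they were 0.01 and 0.02, with 1 lower in each treatment. With array median centring this list gave 1 higher and 1 lower, and 3 higher and 0 lower.

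Kdm1a, which removes methyl groups from histone H3 and works with the CoREST scaffolds Rcor1 to Rcor3 and the deacetylases Hdac1 and Hdac2, read 11.95, 11.89, 11.42 and 11.87 log2 in GFP+ cells after octanoic acid, against 12.10, 11.80, 12.32 and 12.17 in GFP- cells. For the clean air pools it read 12.17, 12.33, 11.71 and 11.82 in GFP+ cells, against 12.51, 12.09, 12.12 and 12.01 in GFP- cells. The groups overlapped, 3 of 4 pools of each treatment were lower in GFP+ cells, and the mean differences were -0.32 log2 (95% interval -0.72 to 0.09, adjusted p = 0.276) and -0.18 (-0.58 to 0.23, adjusted p = 0.589). Without pool 3 the octanoic acid difference was -0.12 (adjusted p = 0.706).

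Some partners of Kdm1a did pass the test. Of 9 measured genes of the LSD1 and CoREST list, 4 were lower in GFP+ cells in each treatment and 0 higher, where 10.9% and 9.58% of all genes were lower. Without octanoic acid pool 3 and clean air pool 4 together 4 and 3 were lower. The list had medians of -0.53 log2 after octanoic acid and -0.35 after clean air, or -0.43 and -0.34 with group means raised to the background. Rcor1, the CoREST scaffold, fell, with differences of -0.81 ± 0.23 and -0.54 ± 0.17 log2 (SD, n = 4 pools, adjusted p = 0.00224 and 0.0279), and Hdac2, a class I deacetylase, fell too, with differences of -0.69 ± 0.29 and -0.57 ± 0.19 (adjusted p = 0.00916 and 0.0272). With array median centring 3 of the list were lower and 1 higher after octanoic acid, and 1 lower and 2 higher after clean air, and with receptor centring 2 and 3 were lower. Rcor2, a scaffold of the neural lineage, differed by -1.05 and -1.17 log2 but lay at the background in GFP+ cells, and Kdm1b, the second LSD-type demethylase, which is 1 of the 4 in each treatment, lay at the background in every group. In the same sorts 8 of 8 leukocyte markers and 7 and 6 of 11 immature neuron markers were lower in GFP+ cells. Hdac2 is itself 1 of the 11 immature neuron markers and is counted among the 7 and the 6. The part of leukocytes and immature neurons in the fall of Rcor1 and Hdac2 was not tested.

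**Figure D3:**
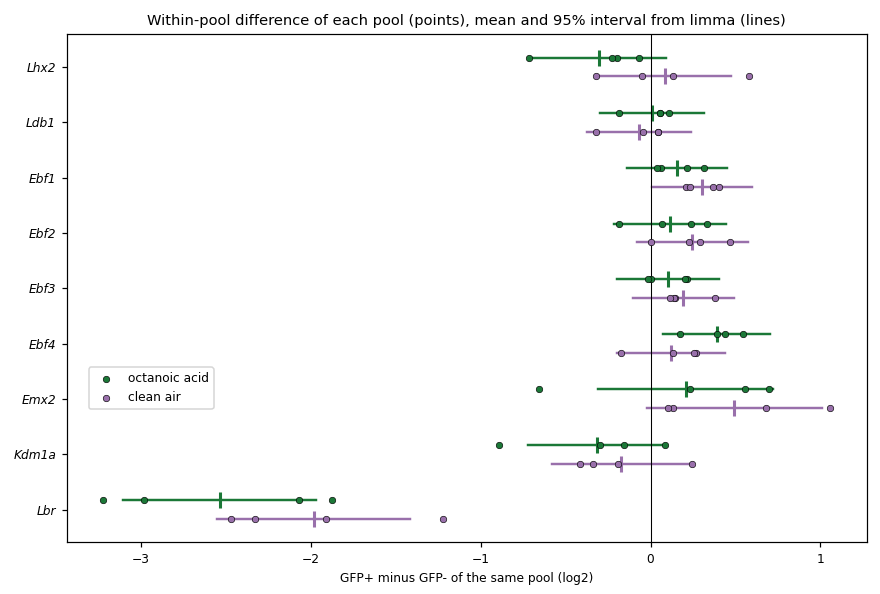
GFP+ minus GFP- signal of the same pool (horizontal axis, log2) for each of the 9 genes, with octanoic acid above clean air. Points are the 4 pools of a treatment, and lines are the limma mean with its 95% interval. Lbr stands at -2.54 and -1.98 with every pool below 0, and the other means lie between -0.32 and 0.49.

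Further lists around the 9 genes were counted in the same way, where 17.2% and 15.4% of all genes were called in either direction. A count of 0 in lists this small does not stand apart from those shares. Of 8 genes of the receptor feedback loop 0 were called in either treatment, with medians of 0.07 and 0.18 log2: Adcy3, the cyclase of the odour signal, differed by 0.23 and 0.45 and the receptor transporter Rtp1 by 0.00 and 0.01. Of 14 genes of nuclear architecture 0 were called, with medians of -0.07 and -0.03, the cohesin loader Nipbl at 0.07 and 0.13 and the cohesin subunit Rad21 at -0.04 and -0.03. Of 11 heterochromatin genes 2 fell after octanoic acid (the methyltransferase Ezh2, -0.80 log2, and Cbx5, which encodes HP1 alpha, -0.68) and 1 after clean air (Ezh2, -0.76), shares near the 10.9% and 9.58% of all genes that were lower, with list medians of 0.00 and -0.08. With octanoic acid pool 3 and clean air pool 4 left out, 0 of the 11 were called in either treatment, and with array median centring 1 was lower in each. On that scale 3 and 5 of the 8 feedback genes and 4 and 1 of the 14 architecture genes were called higher, and with mature neuron centring 4 and 1 of the architecture genes were called lower.

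The neuron lineage factors were the list with the most calls among these. Of 10 measured, 9 were lower in GFP+ cells after octanoic acid and 9 after clean air, where 10.9% and 9.58% of all genes were lower. Without octanoic acid pool 3 and clean air pool 4 the counts were 7 and 9. Among the 9, Hes6, Neurog1, Insm1 and Pax6 lay at the background in both sorts after octanoic acid, and Hes6 and Neurog1 did so after clean air. The list had medians of -1.74 and -1.32 log2, or -0.67 and -0.56 with group means raised to the background. Nhlh1, a helix-loop-helix factor of newly formed neurons, averaged 5.49 and 10.64 log2 in GFP+ and GFP- cells after octanoic acid and 5.09 and 10.79 in those after clean air, so it was at the background in GFP+ cells. Sox11, a factor of young neurons, fell, with differences of -2.51 ± 0.27 and -2.66 ± 0.38 log2, and so did Nhlh2, at -1.95 ± 0.71 and -2.69 ± 0.45 (SD, n = 4). Runx1, which was at the background in GFP+ cells, differed by -3.24 and -2.96. It is also a blood cell factor. Zfp423, a zinc finger protein that binds Ebf factors and is known from young neurons, was not called, at 0.44 and 0.41 log2. The mature neuron markers gave 4 higher of 13 in each treatment (Pde1c by 0.82 and 0.78 log2, Ckb by 0.56 and 0.88, Pde4a by 0.53 and 0.73, Ano2 by 0.51 and 0.50), with medians of 0.29 and 0.24, and 3 and 2 higher without octanoic acid pool 3 and clean air pool 4. Of all genes, 6.26% and 5.83% were higher with all pools. With array median centring 10 of the 13 were higher in each treatment, with receptor centring 2 and 1 were, while 8 or 9 of the 10 lineage factors were lower under each scaling tried.

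The remaining marker lists, of cells that could be in either sort, had 0 genes higher in GFP+ cells on the deposited scale. Over all genes 6.26% and 5.83% were higher and 10.9% and 9.58% lower. After octanoic acid and clean air the counts lower in GFP+ cells were 4 and 4 of 8 for progenitor and basal cells, 2 and 3 of 10 for sustentacular cells, 3 and 3 of 6 for Bowman gland, 6 and 8 of 8 for microvillous and tuft cells, 9 and 9 of 12 for B cells, 8 and 8 of 9 for macrophages and monocytes, 4 and 4 of 5 for erythroid cells, 2 and 0 of 6 for endothelium, 1 and 1 of 8 for stroma and pericytes, and 0 and 0 of 5 for ensheathing glia. Leaving out octanoic acid pool 3 and clean air pool 4 gave 5 and 2 for sustentacular cells (medians -0.79 and -0.72 log2, against -0.42 and -0.80 with all pools), 3 and 4 for progenitor and basal cells, 7 and 6 for microvillous and tuft cells, 9 and 7 for B cells, 6 and 8 for macrophages and monocytes, and 0 and 0 for endothelium, where 1 gene was higher after octanoic acid. For Bowman gland, erythroid, stromal and glial markers the counts were those with all pools. All 6 endothelial and all 5 glial markers lay at the background in all 4 groups. All 8 progenitor and basal cell markers lay there in GFP+ cells of both treatments. In GFP- cells 5 of them did (Neurog1, Lgr5, Krt5, Krt14 and Trp63). That list had medians of -0.51 and -0.51 log2, or -0.08 and 0.0 with group means raised to the background.

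Between octanoic acid and clean air, none of the 9 genes was called. In GFP+ cells 0 of 9 passed the test between octanoic acid and clean air, as did 0% of all genes, where 716 genes had an unadjusted p under 0.05. The estimates were -0.25 log2 for Lhx2, 0.00 for Ldb1, -0.06 for Ebf1, -0.17 for Ebf2, -0.08 for Ebf3, 0.05 for Ebf4, -0.03 for Emx2, -0.23 for Kdm1a and -0.33 for Lbr, with adjusted p-values between 0.955 and 0.997. Lbr in GFP+ cells ranged from 9.96 to 10.22 log2 after octanoic acid and from 10.17 to 10.64 after clean air, which overlap, with a 95% interval of the difference from -0.68 to 0.03 and an unadjusted p of 0.0680. Ebf2 was the gene of the 9 whose GFP+ arrays did not overlap between the treatments, at 16.58 to 16.996 after octanoic acid and 17.005 to 17.09 after clean air. These ranges nearly touch, and the share of all genes whose arrays separate in this way was not counted. The difference of the Ebf2 means, 0.17, was larger than the pooled SD of 0.14. Octanoic acid pool 3 holds the lowest of these Ebf2 arrays, and without it the estimate for Ebf2 was -0.077 log2. Without pool 3 the estimates were also 0.25 for Emx2, -0.043 for Lhx2 and -0.11 for Kdm1a.

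In GFP- cells 0 of 9 genes were called and 0% of all genes (741 with an unadjusted p under 0.05), with estimates between -0.22 log2 (Ebf4) and 0.25 (Emx2) and adjusted p-values from 0.985 to 1.000. Without clean air pool 4 the estimate for Emx2 was 0.06 and that for Lbr, 0.23 with all pools, was 0.47. The odor effect on the GFP+ minus GFP- difference was 0 of 9 called and 0% of all genes (871 with an unadjusted p under 0.05). It was -0.39 log2 for Lhx2 (95% interval -0.94 to 0.17), -0.55 for Lbr (-1.36 to 0.25), -0.29 for Emx2 (-1.02 to 0.44) and between -0.15 and 0.27 for the other genes, with adjusted p-values from 0.940 to 0.973. With octanoic acid pool 3 left out it was -0.25 for Lhx2, 0.0019 for Emx2 and -0.71 for Lbr. These intervals do not show that the treatments act alike.

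**Figure D4:**
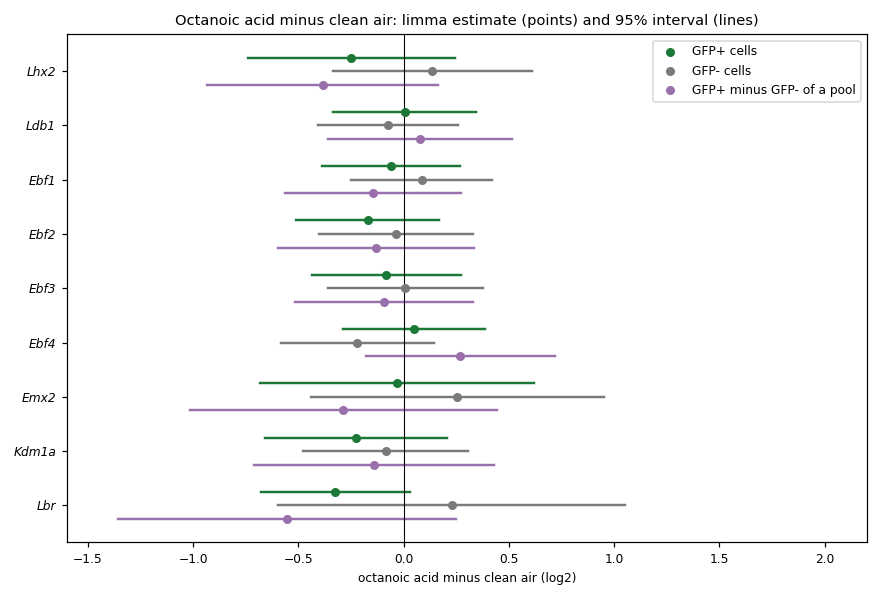
Octanoic acid minus clean air (horizontal axis, log2) for each gene in GFP+ cells, in GFP- cells and in the GFP+ minus GFP- difference. Points are limma estimates from 4 pools per treatment and lines their 95% intervals. The intervals of all 9 genes include 0 in all 3 comparisons, and the interval of Emx2 in GFP+ cells is wider than that of Lbr there.

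The scaling of the arrays decides how the weaker differences read. With each array centred on its median over all genes, the median of all genes moves by 0.31 log2 after octanoic acid and 0.27 after clean air, to 0.42 and 0.38, and the split of calls turns to 7791 higher and 1715 lower genes, and to 6082 and 1571. On that scale all 4 Ebf genes pass the test after octanoic acid (Ebf1 0.46 log2, adjusted p = 0.0205, Ebf2 0.42 and 0.0424, Ebf3 0.41 and 0.0326, Ebf4 0.69 and 0.00523). After clean air Ebf1 (0.57, 0.0101), Ebf2 (0.52, 0.0236), Ebf3 (0.46, 0.0239) and Emx2 (0.77, 0.0274) pass. Relative to the moved median of all genes, the Ebf1 to Ebf3 estimates are close to 0 after octanoic acid. Quantile normalization gave 2587 higher and 2026 lower genes after octanoic acid and 1813 and 1783 after clean air, and centring on the receptor genes 689 and 1576, and 498 and 1856, with Lbr alone called in both. Centring on the mature neuron markers, chosen after seeing the data, moves the median of all genes by -0.32 and -0.39 log2 and gives 371 higher and 3236 lower genes, and 410 and 3006. There Lhx2 (-0.62, adjusted p = 0.0221) and Kdm1a (-0.64, 0.0256) pass as lower after octanoic acid and Kdm1a (-0.57, 0.0474) after clean air, and the Ebf1, Ebf2 and Ebf3 estimates are below 0. Lbr was called lower under every scaling tried.

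**Figure D5:**
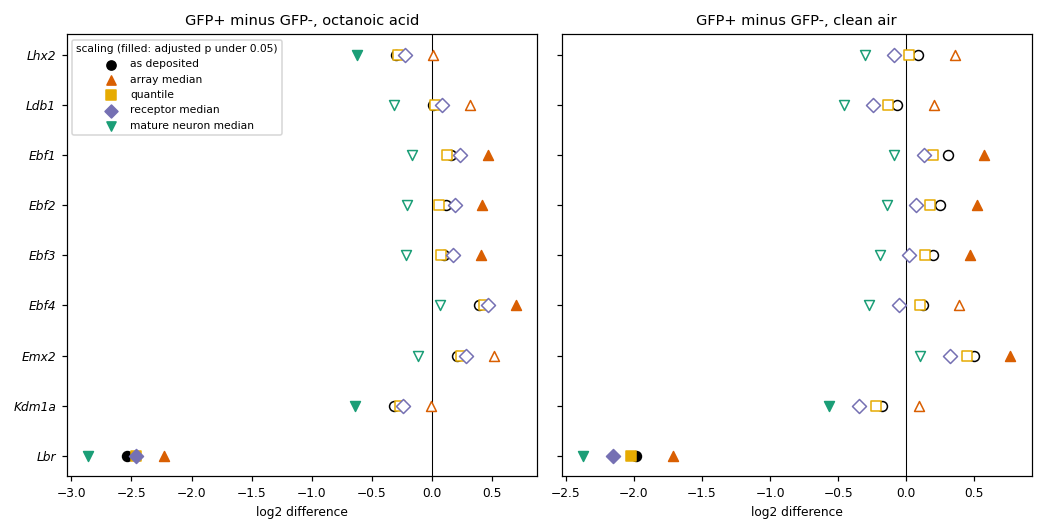
GFP+ minus GFP- difference (horizontal axis, log2) of the 9 genes under 5 scalings of the arrays, octanoic acid left and clean air right, with filled points where the adjusted p is under 0.05. Lbr is filled throughout, and the Ebf genes are filled with array median centring, except Ebf4 after clean air.

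The order of the 4 groups differed between the genes. For Lbr it ran GFP- after octanoic acid, GFP- after clean air, GFP+ after clean air and GFP+ after octanoic acid from high to low. The first gap (0.23 log2) was within the pooled SD, the second (1.98) was beyond it with no overlap, and the third (0.33) was beyond the SD of 0.16 with ranges that overlap. For Ebf1 the order was GFP+ after clean air, GFP+ after octanoic acid, GFP- after octanoic acid and GFP- after clean air, and only the middle gap (0.16 log2) was beyond the pooled SD. For Ebf2 only the step between GFP+ cells after octanoic acid and those after clean air was, as given above, and for Ebf4 only that between GFP- cells after octanoic acid and GFP- cells after clean air, the lowest and the next group (0.22 log2 against an SD of 0.18). For Lhx2, Ldb1, Ebf3, Emx2 and Kdm1a no neighbours in the order differed by more than their pooled SD. The top group was GFP+ after clean air for Ebf1, Ebf2, Ebf3 and Emx2, GFP+ after octanoic acid for Ebf4, GFP- after octanoic acid for Lhx2 and Lbr, and GFP- after clean air for Ldb1 and Kdm1a.

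The patterns of the 9 genes over the 16 arrays were also set against 11344 named genes above the background, by Pearson r, as a description, since the arrays share pools and the sort. Lbr was most like Chil1 (r = 0.988), Slc15a3 (0.987) and Klhl6 (0.987). Lhx2 was most like Nfrkb (0.959), Marchf2 (0.945) and Plppr2 (0.940). For Ebf1 the nearest were Braf (0.966), Slc7a8 (0.962) and Pacsin1 (0.952), for Ebf2 Syp (0.937), Tollip (0.931) and Usp12 (0.921), for Ebf3 Maats1 (0.947), Dvl3 (0.947) and Amigo1 (0.945), and for Ebf4 Kptn (0.934), Smim6 (0.919) and Vwa3a (0.908). Emx2 was nearest to Ppp3cb (0.927), Gatad2a (0.905) and Coro2a (0.905), and Kdm1a to Eif1ad (0.871), Hccs (0.858) and Tomm34 (0.856). Ldb1 had no close match, its best being Lag3 (0.738), Klf16 (0.681) and Cd4 (0.661). Among the 9 genes the closest pairs were Ebf2 and Ebf3 (0.841), Ebf1 and Ebf3 (0.838), Ebf3 and Emx2 (0.796), Ebf1 and Ebf2 (0.758) and Ebf1 and Emx2 (0.748). Lbr ran opposite to Ebf1 (-0.72) and Ebf2 (-0.64).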

How the data were processed

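The deposited values are log2 signals for each probe set on each array. Affymetrix Expression Console made them, per the submitters' processing notes, with a version, summary method and background step not given in the sources used here. That the scale is log2 follows from the range of the values. Of 28846 probe sets, those with 1 gene symbol were used, and the brightest was kept where a gene had several, which left out 67 and gave 19505 genes. The 9 genes, the 21 gene lists and the comparisons were chosen with earlier results of these data known.

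Within-pool differences (log2 GFP+ minus log2 GFP-) entered a limma fit (version 3.58.1, R 4.3.3, lmFit then eBayes, two-sided) over 8 pools, giving the mean per treatment against 0 and the difference between the treatments. Separate fits set octanoic acid against clean air on the GFP+ arrays and on the GFP- arrays, 4 against 4. Benjamini-Hochberg adjustment ran over all 19505 genes, with 0.05 as the threshold. The p-values of single correlations come from exact permutation tests. Each of the 8 pools is a separate set of 3 mice. A gene is called at the background where its group mean is no more than 1 SD above the median of the negative controls. Array number limits the precision.

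The text names all 9 genes, up to 4 genes per list past the threshold in both enrichments (where there were none, up to 2 with the highest signal, besides single calls) and the 3 genes most like each member. Zfp423, Omp, Lmo4, Lmo1, Cbx5 and Nfia were named after their values were seen. Odor and vehicle pools share numbers in the labels. The correlations of same-numbered pools' deviations were 0.179, 0.110, 0.237 and 0.100 for the differences, with 0.371, 0.100, 0.219 and 0.138 on the GFP+ arrays and 0.408, 0.100, -0.0986 and 0.153 on the GFP- arrays. By a limit of 0.1 the numbers barely pair the differences and the GFP+ arrays, and do not pair the GFP- arrays. The fits were tested on simulated data with known changes in 200 genes, put only into the octanoic acid GFP+ arrays. No other gene differed between groups, and the spreads came from the within-pool differences. Of 2-fold changes, 53.1% were found between the sorts after octanoic acid and 54.6% between treatments in GFP+ cells. As an odor effect on the difference, 15.2% were found. For 1.5-fold changes these shares were 8.96%, 10.9% and 0.597%, so small changes were mostly missed in the simulated data. The real fits between the sorts called 17.2% and 15.4% of all genes. The simulated shares therefore do not tell how many real differences between the sorts were missed. False calls made up 5.87%, 5.39% and 5.75% of the calls. Alternatives were other scalings, a floor at each array's own negative-control median, a filter on dim genes, the mean of probe sets, eBayes with trend, replicate blocks and leaving out pools.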

Additional observations from a re-analysis of the deposited data

Results flagged for a closer look

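Of 54 sets of 4 values tested (9 genes in 4 groups, and their within-pool differences in both treatments), 3 held a value whose gap to the nearest of the others exceeded, as a share of the range, Dixon's 95% limit for 4 values, which chance passes in about 1 set in 20. Ldb1 read 15.46 log2 in octanoic acid GFP+ cells of pool 2, where the other pools read 15.77 to 15.83. Kdm1a read 11.42 in octanoic acid GFP+ cells of pool 3, where the others read 11.87 to 11.95. The GFP+ minus GFP- difference of Ebf3 was 0.38 in clean air pool 4, where the others were 0.11 to 0.15. Pool 3 and pool 4 are those whose arrays stood apart in their sustentacular markers.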

How the results depend on the processing

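Lbr was called lower in GFP+ cells under all 18 alternatives of both treatments, at -2.86 to -2.23 log2 after octanoic acid and -2.37 to -1.71 after clean air. The count of called genes among the 9 was 5 after octanoic acid with array median centring, 2 with values raised to each array's own background (Ebf4 joined, adjusted p = 0.0407) and 3 with mature neuron centring (added after seeing the data). The Ebf4 difference itself, 0.39 log2, was unchanged by that floor. After clean air it was 5 with array median centring and 2 with mature neuron centring. Over all genes the calls were 9506 and 7653 with array median centring, and 10167 (8174 higher, 1993 lower) after octanoic acid with values raised to each array's own background. That floor was the negative-control median of each array, 5.80 to 6.77 log2, so genes under it take on the differences between the floors. The median of all genes was then 0.31 log2 after octanoic acid. With 1 pool left out the count among the 9 stayed 1 in both treatments, and that over all genes ran from 2287 to 3351 after octanoic acid and from 2133 to 3202 after clean air. The comparisons between octanoic acid and clean air called 0 genes under every alternative, and the smallest adjusted p among the 9 was 0.411 for the odor effect on the difference, 0.745 in GFP+ cells and 0.518 in GFP- cells. Without the replicate block by pool, the sorts gave 2985 and 2664 calls and the same 1 of 9. A replicate block on the number that odor and vehicle pools share was fitted only for the comparisons between octanoic acid and clean air, where it left 0 calls. The differences between the sorts were not refitted with it.

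No called difference changed sign, but uncalled ones did. GFP+ minus GFP- after octanoic acid turned to 0.00 (0.0044) log2 for Lhx2 with array median centring, to -0.024 for Ldb1 with octanoic acid pool 3 and clean air pool 4 left out together (added after seeing the data), and with mature neuron centring to -0.31 for Ldb1, -0.17 for Ebf1, -0.21 for Ebf2, -0.22 for Ebf3 and -0.11 for Emx2. After clean air it turned to 0.20 for Ldb1 and 0.095 for Kdm1a with array median centring, to -0.089 for Lhx2 and -0.053 for Ebf4 with receptor centring, to -0.081 for Lhx2 without both pools, and with mature neuron centring to -0.31 for Lhx2, -0.087 for Ebf1, -0.14 for Ebf2, -0.20 for Ebf3 and -0.27 for Ebf4. The odor effect on the difference turned with receptor centring for Ebf1 (0.10), Ebf2 (0.12), Ebf3 (0.16) and Kdm1a (0.11), and without both pools for Ebf2 (0.040), Ebf3 (0.0081), Emx2 (0.064) and Kdm1a (0.048). In GFP+ cells octanoic acid minus clean air turned for Emx2 with quantile normalization (0.044), for Ebf1 (0.058), Ebf3 (0.035) and Emx2 (0.087) with receptor centring, for Ebf1 (0.016) and Emx2 (0.045) with mature neuron centring, and without both pools for Ldb1 (-0.00017), Ebf1 (0.018), Ebf3 (0.0098) and Emx2 (0.12). In GFP- cells it turned for Ebf3 with array median centring (-0.030) and quantile normalization (-0.014), and with receptor centring for Ebf1 (-0.045) and Ebf3 (-0.12). The cause of these turns was not tested.

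Leaving out 1 pool at a time turned 30 uncalled values. GFP+ minus GFP- of Ldb1 ran from -0.024 to 0.073 after octanoic acid and from -0.11 to 0.015 after clean air, and that of Lhx2 after clean air from -0.081 to 0.22. The odor effect on the difference ran from -0.45 to 0.0019 for Emx2, -0.27 to 0.053 for Kdm1a and -0.0060 to 0.14 for Ldb1. In GFP+ cells the values ran from -0.11 to 0.0098 for Ebf1, -0.14 to 0.013 for Ebf3, -0.014 to 0.10 for Ebf4, -0.21 to 0.25 for Emx2 and -0.035 to 0.092 for Ldb1. In GFP- cells they ran from -0.12 to 0.061 for Ebf2, -0.083 to 0.068 for Ebf3, -0.16 to 0.024 for Kdm1a, -0.049 to 0.49 for Lbr, -0.12 to 0.0053 for Ldb1 and -0.018 to 0.27 for Lhx2. Lbr in GFP+ cells lies near the upper range of the negative controls, which limits its fold.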
